A study of Caenorhabditis elegans with 4 samples.

Results

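The regions described here are the AHA-1 peaks of chromosome V, taken as every row of that chromosome in 3 deposited peak lists. They number 84 of 474 regions in the combined list, 4607 of 23943 peaks in ChIP replicate 1 and 4198 of 20827 peaks in ChIP replicate 2. The samples were 2 anti-GFP chromatin immunoprecipitation (ChIP) libraries and 2 input chromatin libraries from fed first-stage (L1) hermaphrodite larvae of Caenorhabditis elegans strain OP124. All 4 libraries shared the unc-119(ed3) mutation and the integrated transgene wgIs124, which carries aha-1 fused to TY1, EGFP and FLAG together with unc-119; it was brought in by bombardment, and the strain was outcrossed 3 times. Larvae were grown at 20 °C and crosslinked with 2% formaldehyde. There was 1 strain, 1 stage and no untagged control, the bound protein was the tagged transgene product, and whole larvae were used, so a peak is not assigned to any cell type. The input libraries were not analysed here. Whether the 2 replicates were separate cultures is not stated, so the spread between them may be technical.

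AHA-1, the nematode counterpart of mammalian ARNT, belongs to the bHLH-PAS transcription factors, which bind DNA as dimers. It pairs with proteins such as HIF-1, which responds to low oxygen, and AHR-1, the worm's aryl hydrocarbon receptor. Chromosome V is the largest C. elegans chromosome, and like the other autosomes it has a centre of low recombination between arms of higher recombination. Its arms are known for large families of chemoreceptor genes.

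A replicate list gives windows of nearly constant width, 410 bp in replicate 1 and 484 bp in replicate 2, each with a score whose scale is not stated. Many peaks share a list's highest score, 3.39 in replicate 1 and 3.01 in replicate 2, and are called top-score peaks below. The combined list was made by another caller, gives a q-value for each region, and holds only values up to 0.00999. The combined list names no sample, but its name says combined peaks, and it is taken to derive from the same ChIP libraries. It is therefore not used as an independent check of the replicates. None of the lists gives read counts, so the depth behind each peak is unknown. Positions are WormBase WS220, 1-based. No gene is named, because no annotation of that build was used.

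Chromosome V, 20.9 Mb to the last peak end, was sparser in strong peaks than II, III, IV and X, which served as its background. It held 4.02 combined regions per Mb, against 5.70 per Mb on II, III, IV and X together and 4.52 (X) to 6.97 (III) on each of them. In replicate 1, 181 of the 4607 peaks on V had the top score (3.93%), against 821 of 15627 on the other 4 chromosomes (5.25%), and 4.95% of the peaks of all 5. In replicate 2 the share was 1.60% on V (67 of 4198), against 2.56% elsewhere (346 of 13519), and 2.33% over all 5. Each of these densities and shares on V was the lowest of the 5 chromosomes. The density of all peaks, strong or weak, differed less. Replicate 1 had 220.2 peaks per Mb on V and 243 per Mb elsewhere, and replicate 2 had 201 per Mb on V and 210.4 per Mb elsewhere. Densities and top-score shares were not tested.

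A replicate peak counted as reproduced where the other replicate list had a peak sharing at least 1 bp with it. On V, 1062 of 4607 replicate 1 peaks were reproduced (23.1%, exact 95% binomial interval 21.8 to 24.3), against 3906 of 15627 on II, III, IV and X (24.995%), with 24.6% over all 5 chromosomes. The odds ratio was 0.899 (0.831 to 0.972, two-sided Fisher's exact test, adjusted p = 0.0252 over 7 tests). Of the replicate 2 peaks on V, 1065 of 4198 were reproduced (25.4%, 24.1 to 26.7), against 3950 of 13519 elsewhere (29.2%), with 28.3% over all 5. Here the odds ratio was 0.823 (0.760 to 0.892, Fisher's exact, adjusted p = 8.02e-06). The reproduced share was thus lower on V in both directions, but the difference in replicate 1 was small, and it missed the threshold when midpoints had to lie within 200 bp (adjusted p = 0.0554) or overlap had to be reciprocal at 50% (adjusted p = 0.0536, both by Fisher's exact test). Peaks of a library share their source, and overlapping neighbours are not independent. These p-values are therefore too small and compare chromosomes within these lists only. The 2 directions count the same overlaps from each side, so the 2 tests are not separate evidence. Peak coverage was also lower on V than on the pooled background. Replicate 2 windows covered 9.13% of V and 9.54% of the other 4 chromosomes, and replicate 1 windows covered 8.68% of V and 9.56% of the others. On the separate background chromosomes, replicate 2 windows covered 9.73% of II, 9.68% of III, 8.94% of IV and 9.86% of X. The reproduced share of replicate 1 peaks there was 25.1%, 25.5%, 24.7% and 24.8%, in the same order. The part of coverage in the lower share was not tested.

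Reproduction depended on the score, on V as elsewhere. Of the 181 top-score replicate 1 peaks on V, 126 were reproduced (69.6%, 62.4 to 76.2), against 557 of 821 elsewhere (67.8%), with 68.2% over all 5 chromosomes. The odds ratio was 1.09 (0.757 to 1.57, Fisher's exact, adjusted p = 0.878), so at this number of peaks no difference was detectable. Below the top score the remaining peaks of each list were cut into 3 equal classes over the nuclear chromosomes. In these the replicate 1 share on V was 23.7% in the upper class, 20.5% in the middle class and 19.3% in the lower class. The largest step therefore lay between the top score and the rest. A smaller decline ran from the upper class (21.5 to 26.0) to the lower class (17.3 to 21.4). In replicate 2, 53 of the 67 top-score peaks on V were reproduced (79.1%, 67.4 to 88.1), against 300 of 346 elsewhere (86.7%, 82.7 to 90.1). The shares in its lower classes on V were 29.5%, 21.5% and 23.1%, from the upper to the lower class. The share of windows that would overlap by position alone was not computed, so the shares below the top score have no such baseline.

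**Figure D1:**
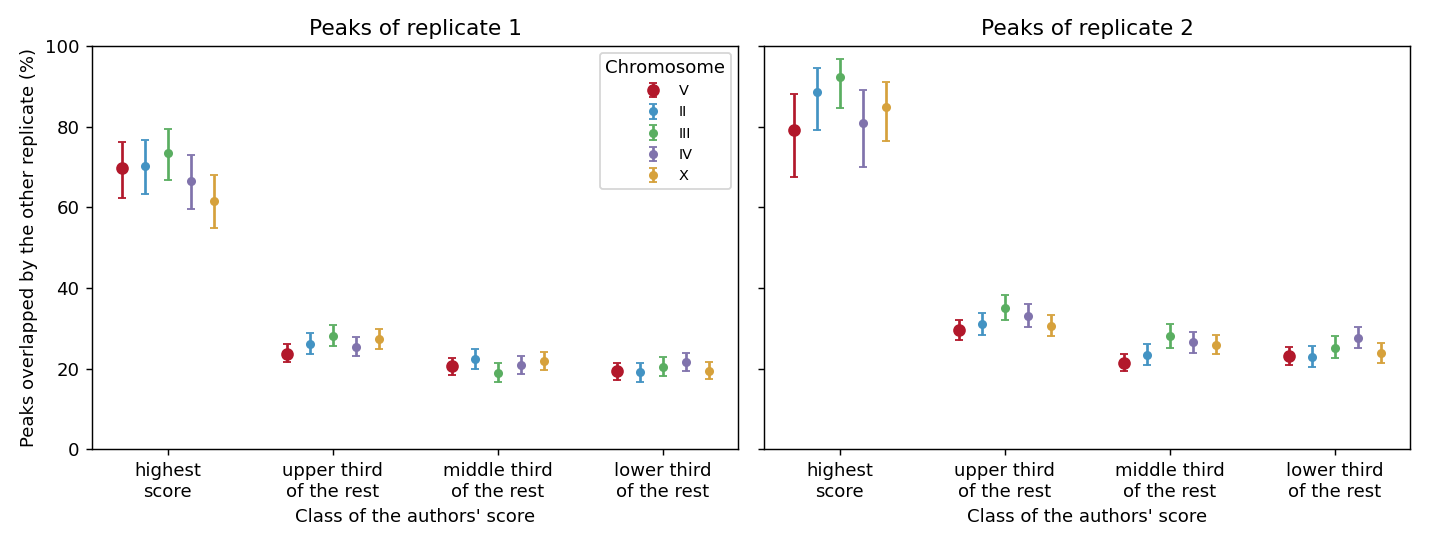
Share of peaks overlapped by the other replicate (%) for 4 classes of the authors' score, for chromosome V and for II, III, IV and X, with exact 95% binomial intervals as bars. On V 69.6% of top-score replicate 1 peaks were overlapped, and 19.3% to 23.7% in the 3 lower classes.

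The distance between paired midpoints followed the same split. Among peaks of V that overlapped exactly 1 peak of the other list in both directions, 23 pairs had the top score in both replicates, and the median distance between their midpoints was 31 bp (interquartile range 22.8 to 50.5 bp). For the 642 pairs on V without any top score the median was 198 bp (95 to 313 bp). Midpoints were within 50 bp in 73.9% of the first kind and in 14.2% of the second. The same medians on II, III, IV and X were 25 bp (143 pairs) and 207 bp (2252 pairs). Among the 642 pairs, Spearman's rho between the scores was 0.02 across pairs, which share their libraries, and across all 729 unique pairs of V it was 0.21.

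**Figure D2:**
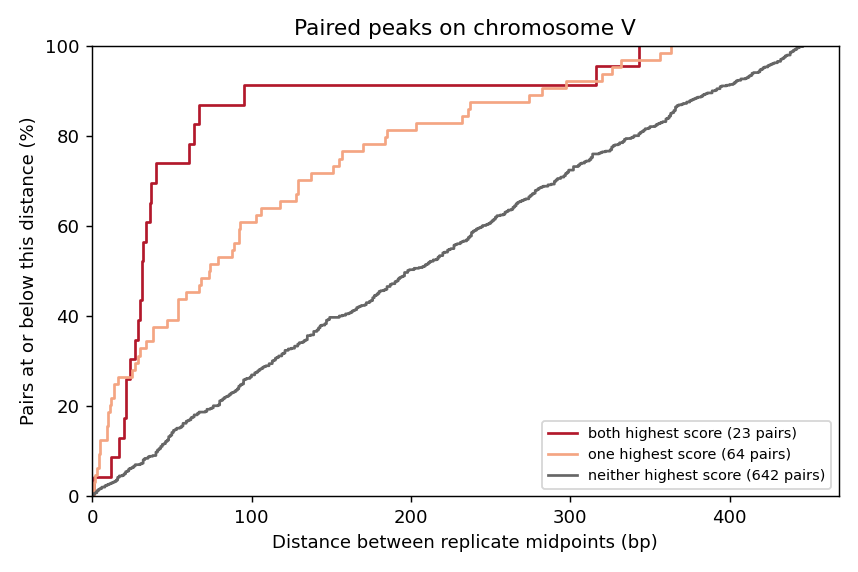
Cumulative share (%) of uniquely paired replicate peaks on chromosome V by the distance between their midpoints (bp), in 3 classes by whether both, one or neither of the peaks had the top score. Pairs with the top score in both had a median distance of 31 bp, and pairs with no top score a median of 198 bp.

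Overlapping peaks of both lists were joined into runs, and a run with peaks of both replicates is a reproduced site. Chromosome V had 933 such sites, 44.6 per Mb, against 53.2 per Mb on II, III, IV and X together (51.5 to 57.8 on each). A further 3191 runs on V held replicate 1 peaks alone and 2708 held replicate 2 peaks alone. Most reproduced sites on V (639, 68.5%) were a single peak from each replicate, with a median width of 691 bp over all sites. Of the 933 sites, 36 held a top-score peak of both replicates, 1.72 per Mb on V, against 3.44 per Mb on the other 4 chromosomes together. Each of these 4 was higher, from 2.46 per Mb on IV to 4.94 per Mb on III; this density was not tested. A combined region covered 31 of the 36 (86.1%, 70.5 to 95.3), against 192 of 221 elsewhere (86.9%, 81.7 to 91.0). Over all reproduced sites, 79 of 933 on V (8.47%) and 340 of 3418 elsewhere (9.95%) touched a combined region.

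The 84 combined regions on V were placed unevenly. The middle one of 3 equal parts of the chromosome, each 6.97 Mb, held 39 regions (46.4%, 35.5 to 57.6), the left part 24 and the right part 21. On II, III, IV and X the middle part held 117 of 366 (32.0%), and over all 5 chromosomes 34.7%. The odds ratio was 1.84 (1.10 to 3.07, two-sided Fisher's exact test, adjusted p = 0.0361). It was 1.74 with II left out of the background (adjusted p = 0.0672), 1.80 with IV left out (adjusted p = 0.0601) and 1.70 for regions with q at or below 0.001 (adjusted p = 0.264, all by Fisher's exact test), so the call rested on a narrow margin. On each background chromosome the middle part held a smaller share than on V, from 27.7% (II) to 36.2% (X). However, II held 53.0% of its regions in the right part and IV 45.8% in the left part. Per Mb, the middle part of V was close to the background, with 5.59 regions against 5.46 on II, III, IV and X together. Separately these ran from 4.52 (II) to 6.97 (III). The outer parts of V were sparser, with 3.44 (left) and 3.01 (right) per Mb against 5.70 and 5.93. These densities were not tested. Combined regions lying close together are not independent, so these p-values are too small and compare chromosomes within this list only.

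When V was cut into 10 equal bins, numbered from the left, bin 6 (10459187 to 12551023) was the fullest, with 18 combined regions or 8.60 per Mb, and bin 7 followed with 12. Bin 9 had the fewest, 4 regions or 1.91 per Mb, and the remaining bins held 5 to 11. Top-score replicate 1 peaks were likewise most frequent in bin 6 with 36 and bin 7 with 31, and least frequent in bin 9 with 7. Top-score replicate 2 peaks numbered 11 in bin 6, 7 in bin 7 and 4 in bin 9, with the fewest, 3, in bin 10. Reproduced peaks were spread more evenly. The middle part of V held 409 of the 1062 reproduced replicate 1 peaks (38.5%), against 1381 of 3906 elsewhere (35.4%), with 36.0% over all 5 chromosomes (odds ratio 1.15, 0.993 to 1.32, Fisher's exact, adjusted p = 0.107). Of all replicate 1 peaks, reproduced or not, the middle part held 36.6% on V and 33.6% elsewhere. The share of replicate 1 peaks reproduced within a bin of V ran from 19.0% (bin 2) to 26.1% (bin 7), with exact intervals that overlapped, 15.3 to 23.1 and 22.4 to 30.2.

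**Figure D3:**
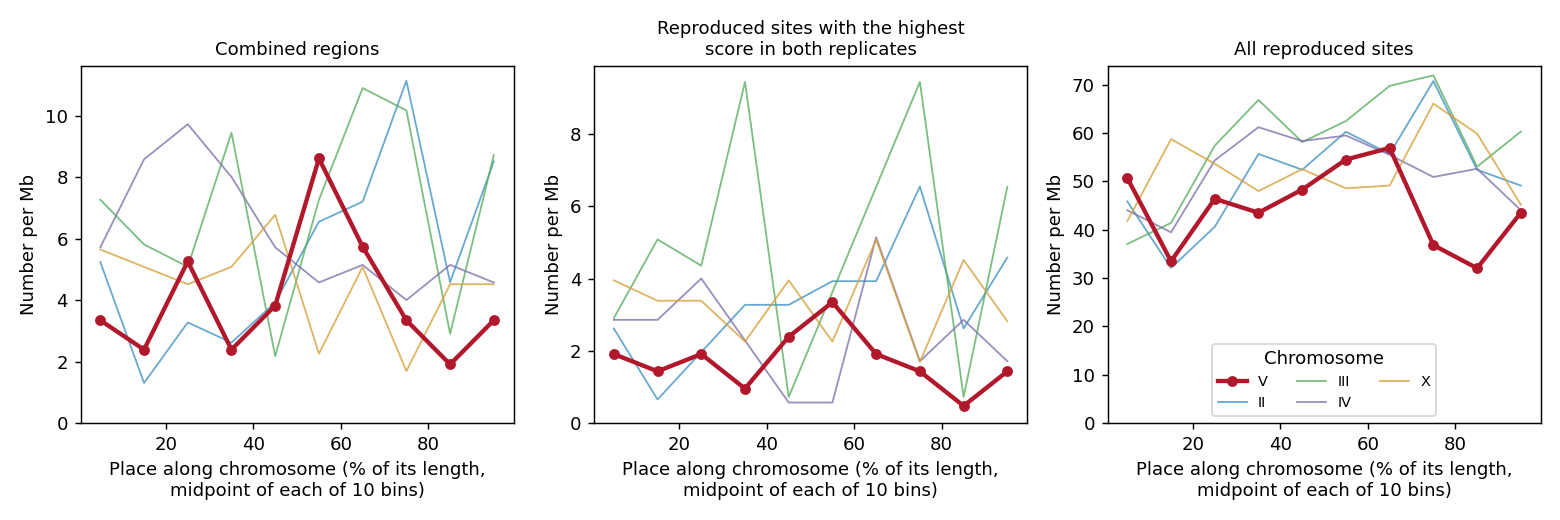
Number per Mb of combined regions, of reproduced sites with the top score in both replicates and of all reproduced sites, in 10 equal bins of each chromosome (% of its length), for V in bold and for II, III, IV and X. Combined regions on V peaked at 8.60 per Mb in bin 6 and were fewest, 1.91 per Mb, in bin 9.

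Long stretches of V had no combined region. The longest ran from 19529544 to 20704048 (1.17 Mb), followed by 2638846 to 3771517 (1.13 Mb), 15766532 to 16795027 (1.03 Mb), 17951640 to 18967632 (1.02 Mb) and 16965956 to 17921471 (0.956 Mb). Of these 5 stretches 4 lie in the right part of the chromosome. They were not empty of replicate peaks. The longest stretch held 224 replicate 1 peaks, of which 55 were reproduced (24.6%), and 249 replicate 2 peaks, but its top-score peaks numbered 2 in replicate 1 and 1 in replicate 2. The stretch from 2638846 held 227 replicate 1 peaks, of which 41 were reproduced (18.1%), and 213 replicate 2 peaks, with 3 and 0 top-score peaks. In the other 3 stretches 18.4%, 19.5% and 23.3% of replicate 1 peaks were reproduced, so the longest had the highest share of the 5, against 23.1% on the whole of V. The longest stretch without a reproduced site was shorter, 257 kb from 2345541 to 2602700, with 8 replicate 1 and 7 replicate 2 peaks. Both lists were sparse there, against 220.2 and 201 peaks per Mb on the whole of V. Its only top-score peak, of replicate 2, lay under the combined region from 2600617 to 2600900.

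Close neighbours were about as frequent as elsewhere. On V, 15 of 84 combined regions had a neighbour whose midpoint lay within 5 kb of their own (17.9%, 10.4 to 27.7), against 70 of 366 on the other 4 chromosomes (19.1%), with 18.9% over all 5. The odds ratio was 0.919 (0.460 to 1.74, Fisher's exact, adjusted p = 0.878), an interval that leaves room for a difference in either direction. The 15 regions formed 7 groups, and 5 of these lay in bins 6 and 7. The only group of 3 spanned 10715699 to 10720129. Its first region (10715699 to 10716216, q = 6.68e-11) held 1 top-score peak of each replicate. The second (10716969 to 10717634, q = 6.25e-04) also had the top score in both, with peak windows that extended past the region's right edge in replicate 1. Under the third (10719768 to 10720129, q = 2.14e-04) replicate 1 had the top score, while the best of 2 replicate 2 peaks scored 1.40.

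One pair of regions showed how the lists divide such a stretch differently. The combined list had regions at 6224320 to 6225534 (q = 1.39e-13) and at 6227256 to 6228038 (q = 2.37e-06). Replicate 1 had 5 top-score peaks across the 2 regions and the space between them, starting at 6224479, 6225297, 6226071, 6227484 and 6227684. Replicate 2 had top-score peaks starting at 6224473 and 6226377, weaker ones starting at 6225245 (score 2.22) and 6225564 (1.30), and none under the second region. The reproduced site between the 2 combined regions, 6226071 to 6226860, had the top score in both replicates and no combined region. The 5 other pairs ran from 11822171 to 11824443 (best q = 5.06e-08), 11885991 to 11888435 (0.00572), 13081059 to 13082885 (6.11e-09), 13657365 to 13658947 (0.00210) and 15189600 to 15191272 (5.61e-04).

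Widths on V ranged from 175 to 3536 bp with a median of 337 bp (interquartile range 285 to 478 bp), against a median of 349 bp (305 to 455 bp) on the other 4 chromosomes. Regions with lower q-values were wider. The median width on V was 551 bp for the 7 regions at or below 1e-10, 408 bp for the 12 from there to 1e-05, 352 bp for the 24 up to 0.001 and 296 bp for the 41 above that. Across the 84 regions, Spearman's rho between width and the negative log10 of q was 0.57, and without the 2 regions of 1500 bp or more it was 0.55. On II, III, IV and X it was 0.49 over 366 regions. These are correlations across regions called by 1 caller on the same reads.

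**Figure D4:**
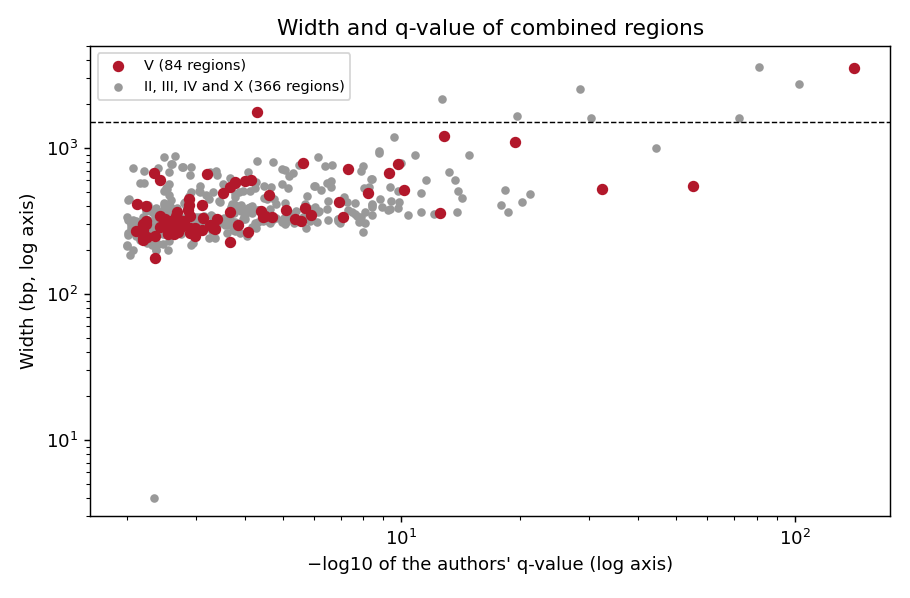
Width (bp, log axis) against the negative log10 of the authors' q-value (log axis) for the 84 combined regions of V and the 366 of II, III, IV and X. The dashed line marks 1500 bp; 2 regions of V, of 3536 and 1751 bp, lie above it.

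The 2 broad regions of V differed in support. The region from 1432017 to 1435552 (3536 bp, q = 2.09e-142) had the lowest q-value of the whole combined list. It overlapped 6 replicate 1 peaks, 3 of them with the top score, and 4 replicate 2 peaks, 3 of them with the top score. The top-score peaks of replicate 1 began at 1432501, 1433486 and 1434741, and those of replicate 2 at 1432476, 1433520 and 1433720. The region from 5283999 to 5285749 (1751 bp, q = 4.98e-05) overlapped a single replicate 1 peak with a score of 1.31 and no replicate 2 peak. It was the widest region on V with no peak in one of the replicates.

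At several of the strongest regions narrower than 1500 bp, but not at all of them, the replicates placed their peaks close to the region's midpoint. The 551 bp region at 10466494 to 10467044 (q = 5.59e-56) had 1 top-score peak of each replicate, 8.5 and 18.5 bp from its midpoint. At 4131385 to 4131911 (527 bp, q = 4.60e-33) the distances were 12.5 and 34 bp, again with the top score in both. At 10897159 to 10897514 (356 bp, q = 3.10e-13) they were 29 and 8 bp. Further regions with the top score in both replicates were 9344013 to 9344788 (q = 1.52e-10), 13082393 to 13082885 (q = 6.11e-09), 18967633 to 18967970 (q = 8.07e-08) and 1151300 to 1151724 (q = 1.15e-07). The region at 18967633 stood at the right edge of one of the long stretches without combined regions. Near the left end, 264905 to 266007 (1103 bp, q = 3.77e-20) had the top score in replicate 2, and its only replicate 1 peak scored 2.69. The best peaks there lay farther out, 245.5 bp (replicate 1) and 224.5 bp (replicate 2) from the midpoint. At 6224320 to 6225534 (1215 bp, q = 1.39e-13) these distances were 243.5 and 212.5 bp.

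The rest of the 25 lowest q-values on V, which ended at 4.98e-05, split by replicate 2. Regions with the top score in both replicates began at 14685583 (q = 1.29e-06), 11824054 (2.03e-06), 15766217 (2.89e-06), 9789869 (4.21e-06), 9546822 (8.06e-06) and 15085405 (3.61e-05). Others had the top score in replicate 1 and a lower one in replicate 2. These began at 11822171 (q = 5.06e-08, replicate 2 score 2.54), 5049300 (4.80e-10, 2.28), 17951167 (2.53e-05, 2.31), 19529172 (4.00e-05, 2.13), 12343556 (2.07e-05, 1.07) and 13678552 (3.25e-05, 0.540). In all, 16 of the 25 had the top score in both replicates, 23 in replicate 1 and 17 in replicate 2, against 14, 48 and 19 of the other 59 regions on V. The 25 were wider, with a median of 473 bp against 301 bp, and 11 of the 25 and 28 of the 59 lay in the middle part of the chromosome.

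Replicate 1 gave the top score to most combined regions of V and replicate 2 to fewer. A top-score peak of replicate 1 lay under 71 of the 84 regions (84.5%), and one of replicate 2 under 36 (42.9%). On II, III, IV and X the counts were 318 of 366 (86.9%) and 202 of 366 (55.2%). Both had the top score under 30 regions of V (35.7%), replicate 1 alone under 41 (48.8%), replicate 2 alone under 6 and neither under 7. On the separate background chromosomes the share with the top score in both ran from 34.6% (IV) to 63.8% (X), so V lay near IV at the low end of this range. The replicate 2 count thinned out as q rose, on V as on the background. On V, replicate 2 had the top score under all 7 regions at or below q of 1e-10 and under 9 of the next 12. It had it under 9 of 24 up to 0.001 (37.5%) and under 11 of 41 above it (26.8%). On II, III, IV and X its shares in these classes were 88.0%, 78.2%, 61.2% and 32.7%. On V, replicate 1 had the top score under 6 of 7, 12 of 12, 22 of 24 and 31 of 41 in the same classes. Its share was thus also lower in the last class than in the 2 before it. These differences from the background were not tested, and the top score is shared by 1238 peaks in replicate 1 and by 512 in replicate 2, so it is the stricter label in replicate 2.

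**Figure D5:**
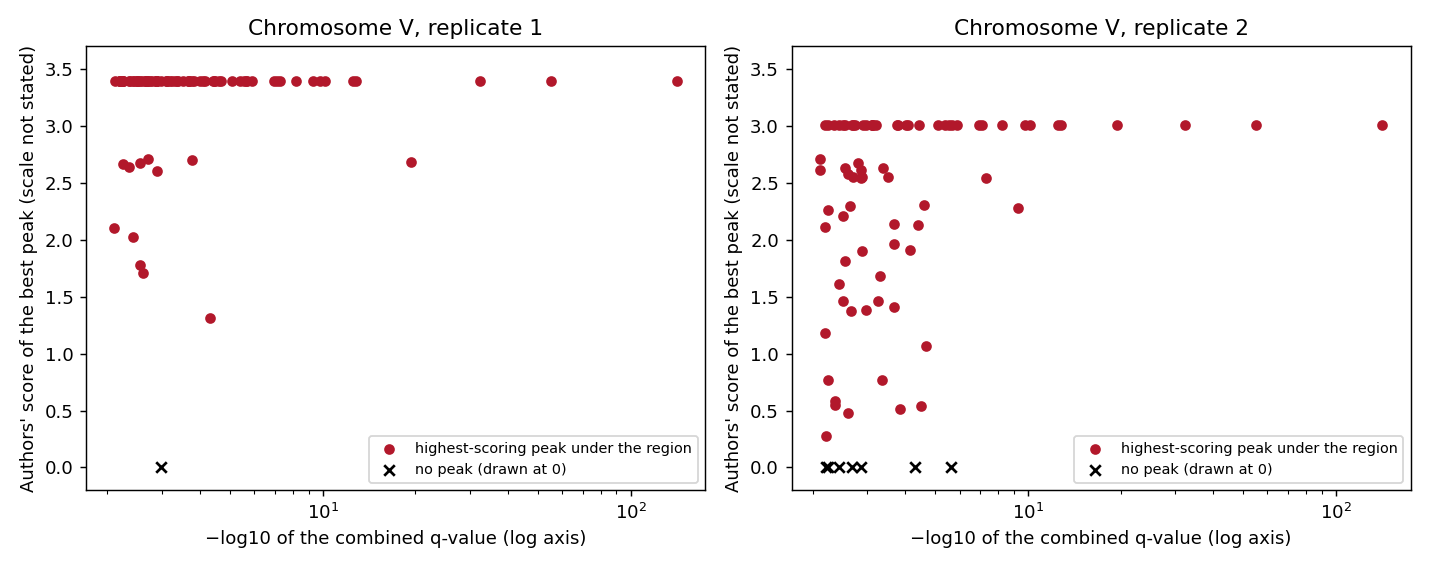
Authors' score of the best replicate peak under each of the 84 combined regions of V against the negative log10 of the combined q-value (log axis), for replicates 1 and 2; crosses at 0 mark regions without a peak. Replicate 1 had its top score under 71 regions and replicate 2 under 36, and crosses number 1 and 7.

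At 6 regions of V a top-score replicate 1 peak coincided with a replicate 2 peak below that list's nuclear median score of 0.634. They began at 13678552, 10807961, 13657365, 4615890, 10578989 and 11885991, and the replicate 2 scores ran from 0.278 to 0.587. The peaks still sat on the same place, with replicate 2 midpoints 5 to 49.5 bp from the region's midpoint. The other chromosomes had 1 to 5 such regions each. That was 1.20% (II) to 4.67% (IV) of their combined regions, against 7.14% on V, a difference that was not tested.

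A peak of each replicate lay under 76 of the 84 combined regions on V (90.5%, 82.1 to 95.8), against 333 of 366 elsewhere (91.0%), with 90.9% over all 5 chromosomes. The odds ratio was 0.942 (0.405 to 2.46, Fisher's exact, adjusted p = 0.878), which does not show that the shares are alike. Every region of V had a peak in at least 1 replicate, while 10 of the 366 regions on II, III, IV and X had none. Of the 8 regions on V with a peak in only 1 list, 7 lacked replicate 2 and 1 lacked replicate 1. Those without replicate 2 began at 2068009 (q = 0.00133), 5283999 (4.98e-05), 6227256 (2.37e-06), 6247241 (0.00204), 7436877 (0.00626), 15190931 (0.00370) and 20704049 (0.00562). Replicate 1 had the top score under 5 of these 7, and scores of 1.31 and 2.66 at 5283999 and 20704049. The region without replicate 1, from 2600617 to 2600900 (q = 0.00103), held a top-score replicate 2 peak with its midpoint 22 bp from that of the region.

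Of the 36 sites on V with the top score in both replicates, 31 had a combined region (86.1%). This share was close to that on II, III, IV and X (192 of 221, 86.9%). The 5 sites with the top score in both replicates and no combined region were 727149 to 727979, 6226071 to 6226860, 6246417 to 6246900, 14011946 to 14012556 and 20580445 to 20580928. They were picked out after their values were seen. The site at 6246417 lay next to the combined region at 6247241 to 6247602, which had a top-score replicate 1 peak and no replicate 2 peak. The site at 727149 sat among other reproduced sites, between one from 724603 to 726233 and the widest on V, from 728811 to 731005 (2195 bp). That widest site joined 4 peaks of each replicate, with best scores of 2.07 in replicate 1 and the top score in replicate 2.

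Of the 126 reproduced top-score replicate 1 peaks on V, 56 had no combined region and 70 had one (55.6%), against 319 of 557 with one on II, III, IV and X (57.3%). The best replicate 2 partner of the 56 had a median score of 1.20 (interquartile range 0.803 to 2.30), and 5 of these partners had the top score, while 12 lay below the list's nuclear median of 0.634. For the 70 with a combined region the median was 2.62 (1.63 to 3.01), and 31 had the top score. The first 10 of the 56, in the order of the authors' peak numbers, began at 7776096, 14347187, 14688547, 8936092, 8918, 7854542, 13565295, 12497699, 13313040 and 6000194. Their best replicate 2 partners scored from 0.502 at 14347187 to 2.77 at 14688547, none of them the top score. At 8936092 the midpoint of the best partner lay 2 bp away although its score was 0.995, and at 14347187 it lay 326 bp away. The reproduced site at 14347187 held 2 replicate 2 peaks, however. It ran to 14347602, past the end of the best partner at 14347307, so the 326 bp describes the best-scoring peak alone. The peak at 8918 lay closest to the left end of the chromosome, 256 kb from the nearest combined region. Of the 55 top-score replicate 1 peaks on V that were not reproduced, 6 lay in a combined region (10.9%), against 25 of 264 on II, III, IV and X (9.47%).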

How the data were processed

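The replicate lists came from 2 ChIP libraries, and the combined list, which names no sample, is taken to come from the same 2. The authors deposited a score for each replicate peak, from SPP run through the IDR procedure, and a q-value for each combined region, from PeakSeq, all on WormBase WS220, per the file headers and source columns. The aligner, software versions, read depths and the way replicates were combined are not given in the labels or headers. Values were read with Python 3.11.15 and pandas 2.3.3, and the overlap code was tested on simulated data. The largest peak end stood for a chromosome's length. Shares carry 95% Clopper-Pearson intervals, which cover counting error over peaks and nothing else. V was compared with II, III, IV and X by two-sided Fisher's exact tests (scipy 1.17.1) with Benjamini-Hochberg adjustment over 7 tests at a threshold of 0.05; all else is description. The chromosome and the quantities compared were chosen with earlier results of these data known. Named regions were the 25 lowest q-values on V, regions of 1500 bp or more, regions lacking a replicate, groups of 3 or more, the 10 strongest uncovered reproduced replicate 1 peaks and the longest stretch without a combined region; others were chosen after seeing their values. Chromosome I and mitochondrial peaks entered only the score classes or list totals. Sequences under the peaks were not used here.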

Additional observations from a re-analysis of the deposited data

How the results depend on the processing

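Of 54 repeats with another setting, 35 kept the direction and the side of the threshold. The replicate 2 share of reproduced peaks stayed lower on V and past the threshold in all 7 repeats run for it. The replicate 1 odds ratio was 0.896 with a reciprocal overlap of 50% and 0.896 with midpoints within 200 bp, where it no longer passed. The middle-part odds ratio of combined regions no longer passed at q at or below 0.001 (1.70) or without II (1.74) or IV (1.80) in the background, and that of reproduced replicate 1 peaks passed without IV (1.18). The other 13 changed direction, all within results far from the threshold. Top-score reproduction had an odds ratio of 0.977 without X. A peak in both replicates had 1.07 with reciprocal overlap, 1.05 with midpoints within 200 bp, 1.40 at q at or below 0.001, 1.08 without broad regions and 1.08 without II. With a peak needed in 1 list alone it ran from 1.02 (without replicate 1) to 2.81 (without replicate 2). A neighbour within 5 kb had 1.02 at q at or below 0.001, 1.69 at 2 kb, 1.07 at 10 kb, 1.12 without III and 1.06 without IV. The cause was not tested. No paired analysis was possible because the input libraries had no values to pair with the ChIP lists in the files used. With no read depth, a missing peak and an undetected one look the same.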
